A study of Homo sapiens with 6 samples.

Results

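The genes described here were the splicing factors named SRSF, HNRNP, SNRP, SF3A, SF3B and U2AF, measured by RNA-seq in MDA-MB-231 cells with and without knockdown of TAZ. They were chosen by symbol alone as the protein-coding genes whose name was one of these stems followed by a member number or letter, which gave 60 of the 46427 genes of the deposited table, 19672 of them protein-coding. They fell into 12 SR proteins, 25 hnRNP proteins, 12 Sm and snRNP proteins, 9 subunits of SF3a and SF3b, and 2 subunits of U2AF. A further 146 pseudogenes had matching symbols and were not counted as members.

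MDA-MB-231 is an established human breast cancer cell line that lacks oestrogen and progesterone receptors and is widely used to study invasion. All cells had the label WT for genotype and were transfected either with control-siRNA (3 libraries) or with TAZ-siRNA (3 libraries), a commercial siRNA against WWTR1, the gene for the Hippo pathway co-activator TAZ. Poly(A) RNA from 3 cell preparations per group was sequenced in bulk, so the results describe 1 line and 1 siRNA reagent, and a change in every cell and a larger one in some cells cannot be told apart. Replicates are numbered here by the sample descriptions. The sample titles use other numbers, so the library titled rep3 in each group is replicate 1 here. The libraries held 48307548 to 71749634 estimated read counts, of which the 60 genes took 1.30% to 1.36%. WWTR1 itself stood at 190 to 192 CPM (counts scaled to library size by TMM) with control-siRNA and at 15.1 to 17.3 CPM with TAZ-siRNA, or 8.64% of the control mean (log2 fold change -3.53 ± 0.06 SE, edgeR quasi-likelihood test with Benjamini-Hochberg adjusted p = 2.47e-10). VIM was at 3611 to 3922 TPM, a unit scaled for transcript length and depth, ESR1 and PGR were at 0.03 TPM or less, and the leukocyte genes PTPRC and CD3E and the globin gene HBB were at 0 in all 6 libraries.

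Splicing removes introns in the spliceosome, which assembles from small nuclear ribonucleoproteins (snRNPs). Each snRNP of the U1, U2, U4 and U5 type carries a ring of Sm proteins on its snRNA, U2AF marks the 3′ splice site, and SF3a and SF3b bind as parts of the U2 snRNP at the branch point. SR proteins mostly favour the use of the exons they bind, hnRNP proteins often repress it, and both families adjust their own level through noncoding transcripts that carry poison exons.

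The promoters of a few members are shown first. Whether the letters before their start sites bear on any change in level was not tested. For 50 of the 54 members tested below, RefSeq (GRCh38.p14) gave the 250 bases before the start, of which 36 began within 50 bases of the outermost deposited start of the gene. The sequences shown include the member with the largest rise (HNRNPH3), the member with the largest fall (SF3B5) and a member with a TEAD motif (HNRNPH1). SNRPA1 (Sm and snRNP) and SF3B6 (SF3) are shown as members with an ETS motif and a log2 fold change below 0. Neither was called by edgeR, with -0.13 ± 0.06 SE for SNRPA1 (adjusted p = 0.150) and -0.17 ± 0.07 SE for SF3B6 (adjusted p = 0.0852). With GC content and transcript length fitted, these values were -0.008 and -0.028. All were taken only from windows that overlap no UTR annotated in GENCODE release 44. Capitals mark the motifs searched on both strands, which were GGAATG for TEAD (the DNA-binding partners of TAZ), CCGGAAG for ETS factors, TATAAA for the TATA box, CCAAT for the CCAAT box and CACGTG for the E-box.
HNRNPH3, chr10:68331443-68331692, plus strand: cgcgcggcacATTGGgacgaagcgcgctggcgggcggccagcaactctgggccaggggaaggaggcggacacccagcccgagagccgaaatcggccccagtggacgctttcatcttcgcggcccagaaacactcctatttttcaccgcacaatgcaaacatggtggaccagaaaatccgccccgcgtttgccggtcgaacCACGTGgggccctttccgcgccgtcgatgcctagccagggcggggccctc
SF3B5, chr6:144095574-144095823, minus strand: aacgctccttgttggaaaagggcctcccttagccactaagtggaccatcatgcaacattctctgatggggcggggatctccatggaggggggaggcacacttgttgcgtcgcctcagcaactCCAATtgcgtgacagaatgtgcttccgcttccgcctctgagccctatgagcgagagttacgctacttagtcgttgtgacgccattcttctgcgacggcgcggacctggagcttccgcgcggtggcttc
SNRPA1, chr15:101295249-101295498, minus strand: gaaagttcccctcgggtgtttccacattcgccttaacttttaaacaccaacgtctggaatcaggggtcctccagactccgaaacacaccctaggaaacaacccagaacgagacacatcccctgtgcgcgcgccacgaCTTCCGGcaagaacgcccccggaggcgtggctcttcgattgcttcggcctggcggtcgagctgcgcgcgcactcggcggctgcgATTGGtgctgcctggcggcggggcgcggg
SF3B6, chr2:24076327-24076576, minus strand: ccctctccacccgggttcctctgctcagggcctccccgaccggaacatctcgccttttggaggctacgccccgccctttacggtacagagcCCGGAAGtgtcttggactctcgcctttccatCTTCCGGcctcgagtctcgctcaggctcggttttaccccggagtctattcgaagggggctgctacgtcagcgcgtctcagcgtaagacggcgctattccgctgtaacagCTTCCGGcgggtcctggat
HNRNPH1, chr5:179634785-179635034, minus strand: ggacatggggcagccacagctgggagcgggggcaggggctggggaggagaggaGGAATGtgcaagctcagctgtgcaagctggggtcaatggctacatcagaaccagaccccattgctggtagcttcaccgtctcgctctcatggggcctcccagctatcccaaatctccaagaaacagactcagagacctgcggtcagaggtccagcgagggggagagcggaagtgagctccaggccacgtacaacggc
The HNRNPH3 window held a CCAAT box on the reverse strand and an E-box that ended 45 bases before the start, and the SF3B5 window held a CCAAT box alone. SF3B6 held 3 ETS motifs, the nearest of which ended 13 bases before the start, and that of SNRPA1 ended 107 bases before it.

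The ETS letters stood in the windows of 7 of 10 Sm and snRNP genes and of 6 of 8 SF3 genes, against 2 of 10 SR genes and 3 of 20 hnRNP genes. Among all members they were in 19 of 50 (38%), beside 14.99% of the 12444 promoters of genes tested and 8.82% of all 27305 promoters searched. Promoters on chromosome 8, entries without the full length and repeated entries of a gene were left out of the search. The TEAD letters were in 4 of 50 members (8.0%), all of them hnRNP genes (HNRNPA0, HNRNPC, HNRNPH1 and HNRNPL), beside 9.55% of the promoters of genes tested. The CCAAT box was in 13 of 20 hnRNP genes and 2 of 10 SR genes, beside 34.6% of the promoters of genes tested. The E-box was in 7 of 50 members, beside 8.73% of the promoters of genes tested, and the TATA box in 6 of 50, beside 5.89%. None of these motifs overlapped a different one in the members. These are matches of letters and were not tested as binding sites, and for the other 14 windows the outermost deposited start lies more than 50 bases away. Some windows with ETS letters ended inside the deposited gene at such distances. These were SNRPE (248 bases), SNRPG (313) and SNRPC (411) in the Sm and snRNP count, and HNRNPF (391) and HNRNPLL (108) in the hnRNP count. U2AF2 (903) was a further such window in the count of all members.

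Of the 60 members, 54 had enough counts for the test, which were 11 SR, 21 hnRNP, 11 Sm and snRNP, 9 SF3 and both U2AF genes. SRSF12, HNRNPCL1, HNRNPCL2 and SNRPN had 0 counts in every library, which allows up to 0.0418 to 0.0621 CPM per library (3 counts, covering counting error only), and HNRNPCL3 and HNRNPCL4 had 2 and 1 counts in a single library. SNURF, which shares its transcripts with SNRPN, was also listed at 0 in all 6 libraries, and whether these zeros come from the cells or from the quantification was not tested. The 54 members spanned 12.8 to 837 TPM (mean of 6 libraries). HNRNPA1, which coats nascent RNA, was the highest of the hnRNP genes at 853 ± 25.3 TPM (SD, n = 3) with control-siRNA and 821 ± 23.5 TPM with TAZ-siRNA. The highest member of the other families, by mean over the 6 libraries, was SNRPB (a Sm ring protein, 692 TPM), SF3B6 (the SF3b protein that contacts the branch point, 477 TPM), SRSF9 (250 TPM) and U2AF2 (the large subunit that binds the polypyrimidine tract, 174 TPM). U2AF1 was listed at 106 TPM, but a near-identical copy, U2AF1L5, took 50.5% of their summed counts. The order of U2AF1 and U2AF2 could therefore depend on how those reads were divided. In the order of control-siRNA levels, 26 of 53 neighbouring pairs differed by less than the larger SD of the pair. By the edgeR fit of counts, no tested member changed by more than 20.3% between the groups. Changes in TPM could be larger, as in HNRNPH3, at 87.0 ± 3.54 TPM with control-siRNA and 108 ± 4.95 TPM with TAZ-siRNA.

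**Figure D1:**
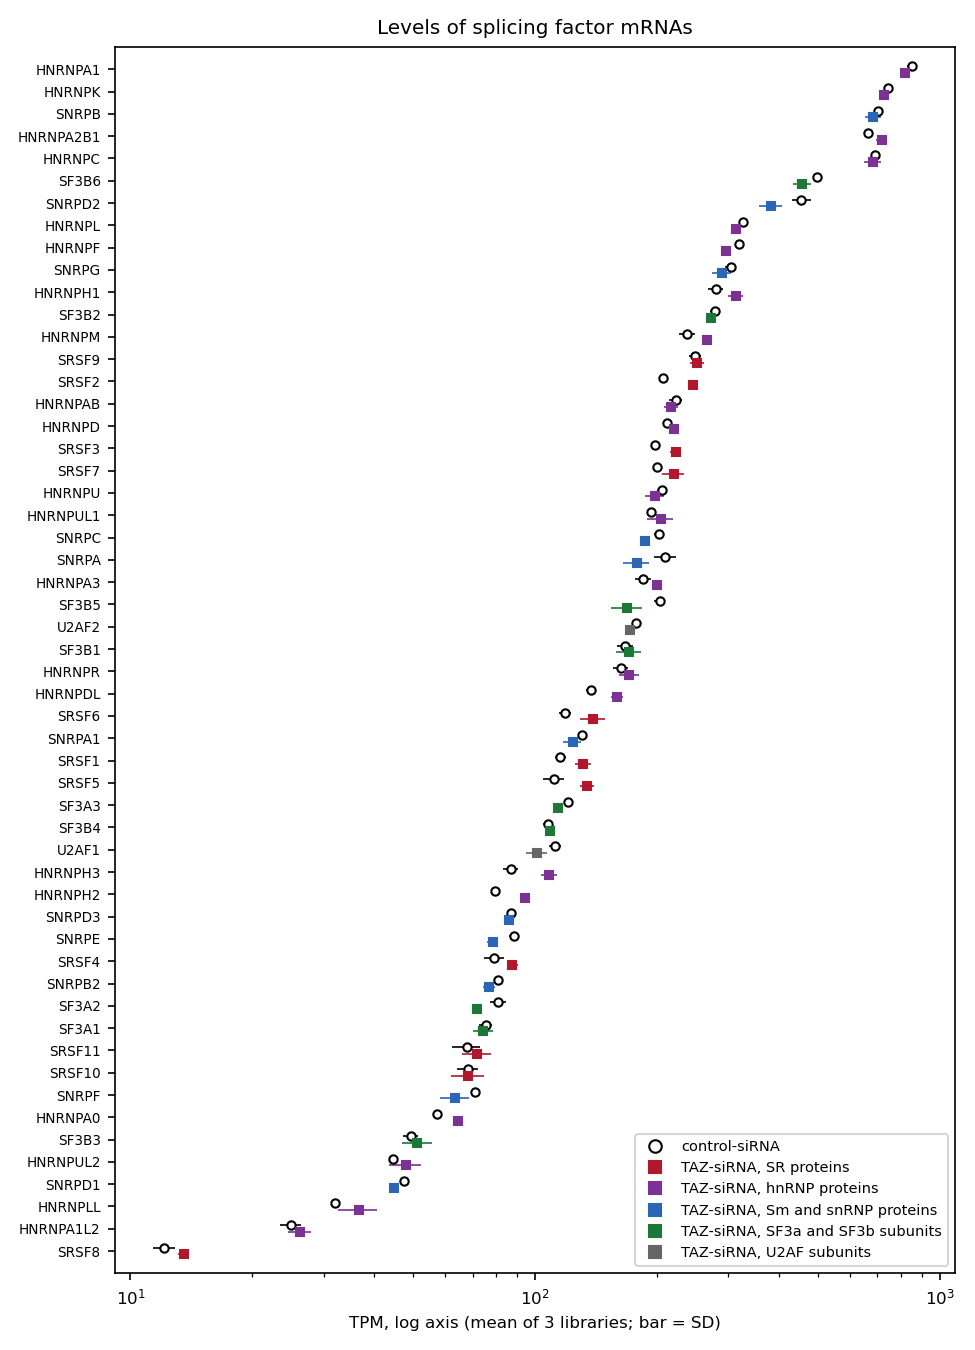
Level of each of the 54 tested members in TPM (log axis), with open circles for control-siRNA, coloured squares for TAZ-siRNA and bars for the SD of 3 libraries. Levels run from 12.8 TPM (SRSF8) to 837 TPM (HNRNPA1, mean of 6 libraries), and the 2 symbols of a gene lie close together compared with the distances between genes.

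At an adjusted p under 0.05 (edgeR, adjusted over 16966 genes), 10 of the 54 members changed (18.5%), beside 22.1% of all genes tested. The 5 that rose were SRSF2, SRSF5, SRSF6, HNRNPH3 and HNRNPH2, against a background of 11.9% of genes higher. The 5 that fell were SNRPE, SNRPD2, SNRPA, SF3A2 and SF3B5, against a background of 10.2% of genes lower. The members were thus called about as often as genes in general. Of protein-coding genes alone, 25.7% were called, a higher share than among the members. In this fit, with all 6 libraries and no offsets, the 5 rises were of SR or hnRNP genes and the 5 falls of Sm and snRNP or SF3 genes. Values of the 2 groups did not overlap in 24 of 54 members (44.4%, 13 higher and 11 lower). The share was 39.6% of all genes tested and 43.3% of protein-coding genes tested.

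**Figure D2:**
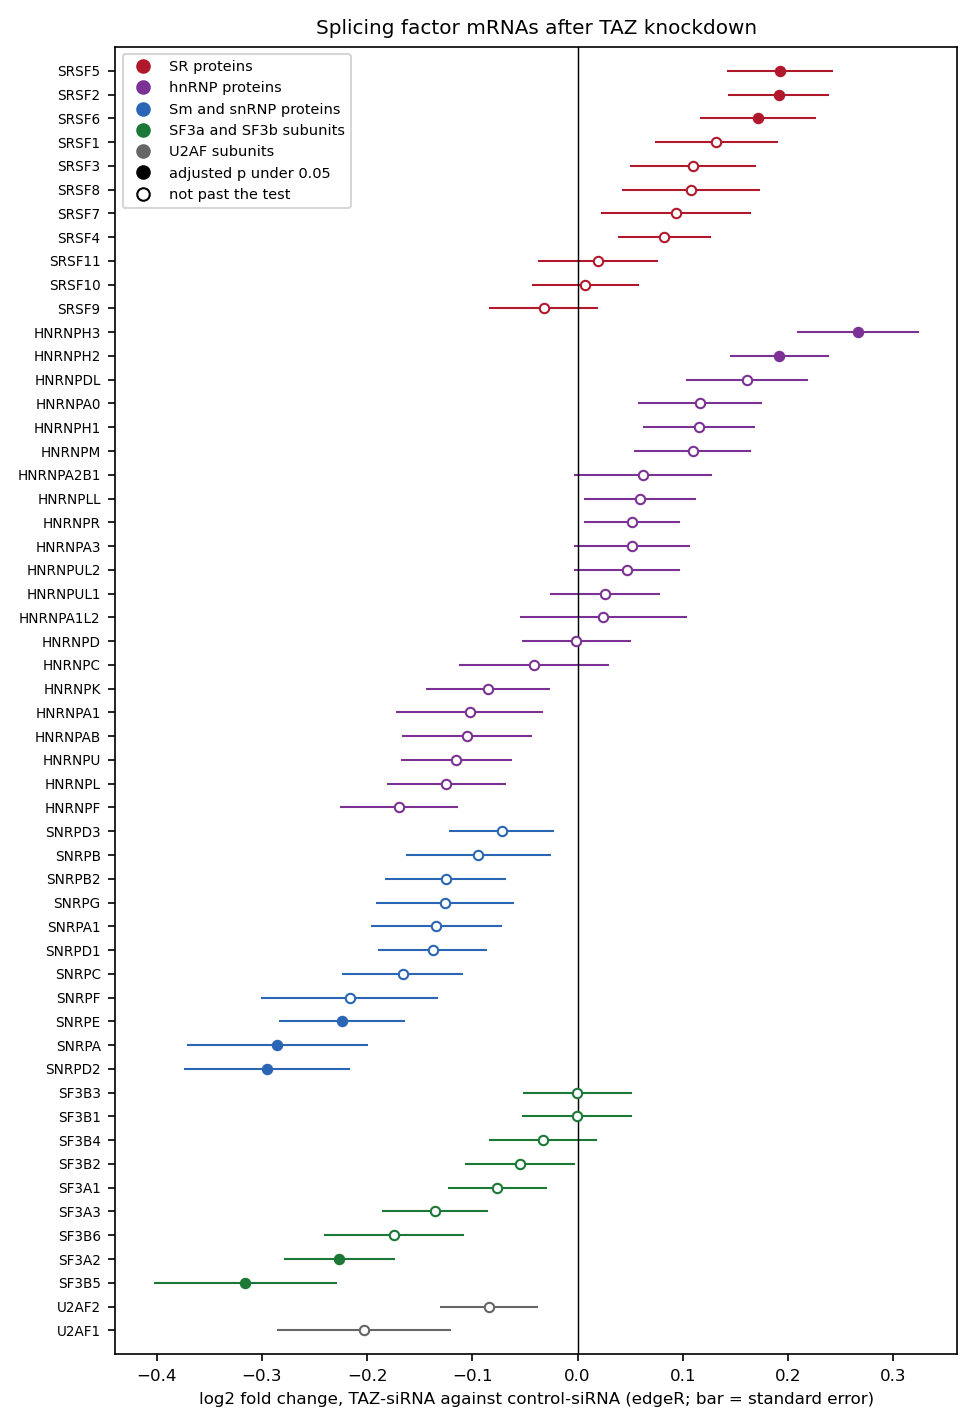
Log2 fold change of each tested member with TAZ-siRNA against control-siRNA (horizontal axis, edgeR), with bars for the standard error, colours for the family and filled symbols for an adjusted p under 0.05. The 5 filled symbols to the right of 0 are SR and hnRNP genes, and the 5 to the left are Sm and snRNP and SF3 genes.

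The log2 fold change was above 0 in 10 of 11 SR genes, with a median of 0.11, beside -0.01 over all genes tested, though in 8 without control-siRNA replicate 3 and in 9 without TAZ-siRNA replicate 1. It was below 0 in all 11 Sm and snRNP genes (median -0.14, though 2 were above 0 with GC content and length fitted), in 9 of 9 SF3 genes (median -0.08, with SF3B1 and SF3B3 within 0.001 of 0) and in both U2AF genes (median -0.14). Of the SF3 genes, 2 were above 0 with DESeq2 (SF3B1 at 0.00011) and without control-siRNA replicate 1 or 2 or TAZ-siRNA replicate 2 or 3. Without TAZ-siRNA replicate 1, or with GC content and length fitted, 1 was above 0. With limma, SRSF10 turned below 0, and SF3B3 and HNRNPD turned above 0. Among 21 hnRNP genes, 13 were above 0 and 8 below, with a median of 0.05. The summed level of the SR genes was 1449, 1445 and 1376 TPM with control-siRNA and 1611, 1569 and 1574 TPM with TAZ-siRNA. The summed level of the Sm and snRNP genes was 2353, 2362 and 2413 TPM with control-siRNA and 2166, 2109 and 2300 TPM with TAZ-siRNA. The ratio of the first sum to the second was 0.571 to 0.616 in the controls against 0.684 to 0.744 after TAZ-siRNA. The SF3 sum was 1566 to 1585 TPM against 1472 to 1505 TPM, and the hnRNP sum was 5724 to 5774 TPM against 5778 to 5947 TPM. The U2AF sum was 286 to 293 TPM against 269 to 277 TPM. The sum of every family was thus without overlap between the groups. How often the sums of other gene sets separate was not tested. The families also differed in transcript length, with a median of 1277 bases in the Sm and snRNP genes and 3806 bases in the SR genes, beside 2944 over all genes tested. With GC content and transcript length fitted as offsets, the medians were 0.08 (SR), 0.02 (hnRNP), -0.10 (Sm and snRNP), -0.13 (SF3) and -0.08 (U2AF).

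Among the SR proteins, 3 of 11 rose. SRSF2, an exonic enhancer-binding protein at chr17:76734115-76737411, was at 185, 187 and 188 CPM with control-siRNA and at 214, 205 and 220 CPM with TAZ-siRNA. The groups did not overlap, and the rise of 14.2% had a log2 fold change of 0.19 ± 0.05 (SE, as after every log2 value below, adjusted p = 0.0174). SRSF5 (chr14:69767112-69772005) was at 89.1, 95.9 and 93.3 CPM against 102, 106 and 110 CPM, a rise of the same size (0.19 ± 0.05, adjusted p = 0.0212). SRSF6 (chr20:43457893-43464243) was at 241, 242 and 237 CPM against 283, 253 and 274 CPM, with a log2 fold change of 0.17 ± 0.06 (adjusted p = 0.0481). Again each TAZ-siRNA library was above each control-siRNA library. SRSF1, SRSF3, SRSF4 and SRSF8 also had groups that did not overlap, with log2 fold changes of 0.08 to 0.13, and did not pass the test (adjusted p = 0.132 to 0.269). With GC and length offsets, SRSF4 was called higher (0.12, adjusted p = 0.0453), and SRSF1, SRSF3 and SRSF8 were not called. SRSF7, SRSF10 and SRSF11 overlapped. SRSF9, the highest by level, was the only SR gene below 0, at 132, 132 and 130 CPM against 120, 131 and 134 CPM (-0.03 ± 0.05, adjusted p = 0.701), and its sign turned with the GC and length offsets (0.08) and without TAZ-siRNA replicate 1 (0.02).

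Among the hnRNP proteins, 2 of 21 rose, both of the HNRNPH group that binds runs of G. HNRNPH3 (chr10:68331693-68343196) was at 94.0, 97.9 and 94.0 CPM with control-siRNA and at 115, 106 and 123 CPM with TAZ-siRNA. This was the largest rise of any member tested, 20.3%, with a log2 fold change of 0.27 ± 0.06 (adjusted p = 0.00892). HNRNPH2 (chrX:101408133-101414140) was at 83.3, 84.3 and 86.3 CPM against 96.6, 93.4 and 99.9 CPM (0.19 ± 0.05, adjusted p = 0.0153). The third gene of the group, HNRNPH1, was at 281 ± 5.69 CPM against 304 ± 12.2 CPM (SD, n = 3), without overlap and short of the threshold (0.12 ± 0.05, adjusted p = 0.146). With GC and length offsets, HNRNPH1 was called higher (0.18, adjusted p = 0.00434). HNRNPF, a close relative of these genes, had the lowest log2 fold change of the family at -0.17 ± 0.06 (adjusted p = 0.0533), with 393 ± 13.9 CPM against 349 ± 13.0 CPM. With all 6 libraries and no offsets, edgeR called 0 hnRNP genes lower, 2 were lower at an unadjusted p under 0.05, and DESeq2 called 2 lower. Over all genes, DESeq2 called 11.8% lower. The count was 4 without TAZ-siRNA replicate 3, beside 16.1% of all genes, and 3 with GC and length offsets (HNRNPF among them), beside 16.1%. It was 2 with the replicate number as a block, beside 14.9%. It was 1 with limma, beside 8.23%, and with at least 10 counts required in every library, beside 11.4%. HNRNPA1 overlapped between the groups, at 1314, 1375 and 1454 CPM against 1255, 1216 and 1388 CPM (-0.10 ± 0.07, adjusted p = 0.327).

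Among the Sm and snRNP proteins, 3 of 11 fell. SNRPD2, a Sm ring protein (chr19:45687454-45692316), was at 134, 133 and 151 CPM with control-siRNA and at 106, 107 and 128 CPM with TAZ-siRNA, a fall of 18.5% (log2 fold change -0.30 ± 0.08, adjusted p = 0.0231). SNRPE, also of the ring (chr1:203861599-203871152), was at 64.4, 61.7 and 64.7 CPM against 50.9, 54.1 and 58.4 CPM (-0.22 ± 0.06, adjusted p = 0.0225). SNRPA, a protein of the U1 snRNP that binds its RNA (chr19:40751203-40765389), was at 113, 126 and 131 CPM against 94.7, 93.1 and 115 CPM (-0.29 ± 0.09, adjusted p = 0.0395). With GC and length offsets, SNRPE was no longer called (-0.13, adjusted p = 0.0503) and SNRPD2 stood at -0.19 (adjusted p = 0.0079). SNRPD2 and SNRPE did not overlap between the groups, whereas SNRPA did, because TAZ-siRNA replicate 3 lay above control-siRNA replicate 1. The other 8 genes had log2 fold changes of -0.22 (SNRPF) to -0.07 (SNRPD3). SNRPB, the highest by level, was at 333, 340 and 356 CPM against 311, 300 and 354 CPM (-0.09 ± 0.07, adjusted p = 0.360), and reached 0 with the GC and length offsets.

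Among the SF3 subunits, 2 of 9 fell. SF3A2 (chr19:2236824-2248655), a subunit of SF3a, was at 60.2, 61.7 and 59.1 CPM with control-siRNA and at 49.6, 51.3 and 54.0 CPM with TAZ-siRNA (-0.23 ± 0.05, adjusted p = 0.0122). SF3B5, the smallest SF3b protein (chr6:144094884-144095573), was at 62.8, 62.0 and 68.7 CPM against 48.02, 47.5 and 59.9 CPM, which at 19.6% was the largest fall of any member tested (-0.32 ± 0.09, adjusted p = 0.0274). Both genes were without overlap between the groups, and SF3B5 stood at -0.20 (adjusted p = 0.0186) with GC and length offsets. SF3B1, the large SF3b subunit that is recurrently mutated in cancers, was at 408, 403 and 398 CPM against 412, 404 and 392 CPM, a log2 fold change of 0.00 ± 0.05 (adjusted p = 0.997). SF3B6 was at 146, 147 and 155 CPM against 124, 126 and 147 CPM (-0.17 ± 0.07, adjusted p = 0.0852). With all 6 libraries and no block, edgeR called 0 of the 2 U2AF genes (1 was lower at an unadjusted p under 0.05, and DESeq2 called 0). U2AF1 was called lower without TAZ-siRNA replicate 3 (-0.30, adjusted p = 0.0014) and with the replicate block (-0.21, adjusted p = 0.011). U2AF2 was at 190, 190 and 191 CPM against 174, 178 and 186 CPM, without overlap (-0.08 ± 0.05, adjusted p = 0.229).

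TAZ-siRNA replicate 3 stood apart from the other TAZ-siRNA libraries in these families. It was the highest TAZ-siRNA library in 43 of 54 members, beside 6408 of 16966 genes tested, and in all 11 Sm and snRNP genes it lay nearest to the control mean, whereas in 0 of 11 SR genes did it do so. Relative to the control mean, the median log2 level of the Sm and snRNP genes was -0.18, -0.23 and -0.05 in TAZ-siRNA replicates 1, 2 and 3, and that of the SR genes was 0.10, 0.03 and 0.19. This library had 15.1 CPM of WWTR1, the lowest of the 6, and 4.86% of counts from mitochondrial genes (4.72% to 5.07% over the 6 libraries), and the part of either in these differences was not tested. Without it, 19 of 54 members were lower, 10 of them Sm and snRNP genes, beside 16.1% of genes, and 5 were higher, beside 17.6% of genes. All 10 members called with 6 libraries were among these 24.

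**Figure D3:**
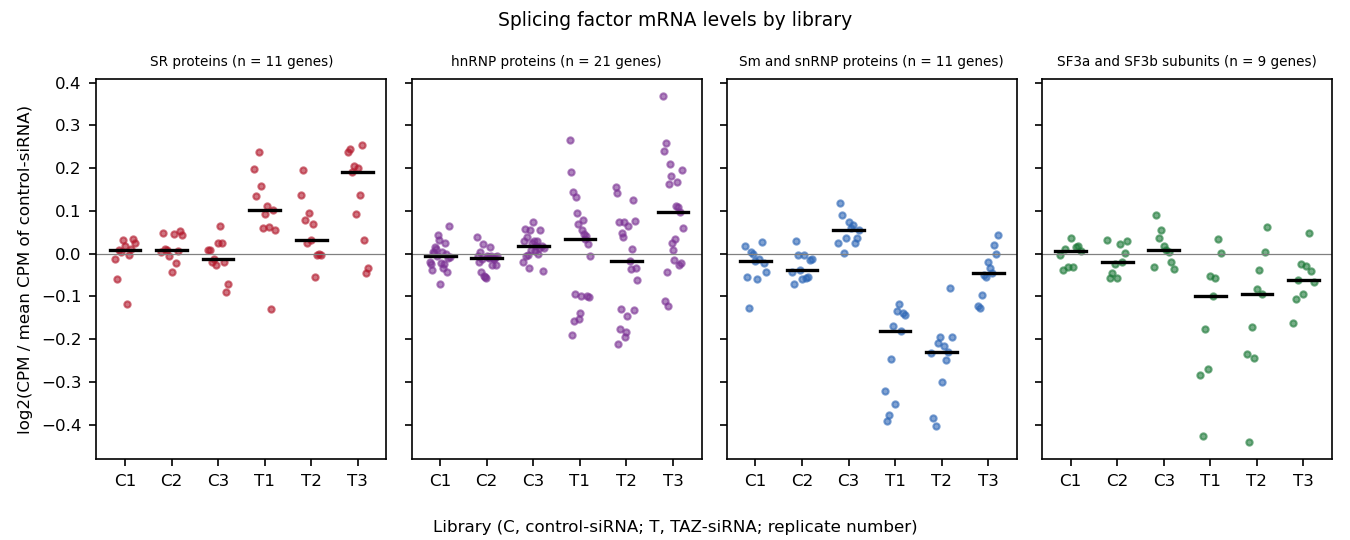
Level of each tested member relative to its mean in the control-siRNA libraries, on a log2 scale of CPM, by library (C, control-siRNA; T, TAZ-siRNA), with 1 point per gene and a bar for the family median. In TAZ-siRNA replicate 3 the median lies at -0.05 for Sm and snRNP genes and at 0.19 for SR genes, above the medians of TAZ-siRNA replicates 1 and 2.

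Leaving out any other library lowered the total number of calls from 10. When a control-siRNA library was left out, 1 member was higher and 1 lower (replicate 1), 1 was higher and 0 lower (replicate 2), or 2 were higher and 1 lower (replicate 3). When a TAZ-siRNA library was left out, 2 were higher and 0 lower (replicate 1), or 7 were higher and 1 lower (replicate 2). In the same 5 fits, 7.4%, 6.39%, 6.75%, 6.68% and 8.62% of all genes were higher and 5.74%, 4.84%, 5.32%, 5.22% and 6.72% were lower, in that order, so calls became fewer over all genes too. HNRNPH3 was the only member called in all 6 of these fits, with an adjusted p of 0.00216 to 0.0471. SRSF2 ranged from 0.00671 to 0.0853, SRSF5 from 0.0107 to 0.0978, SRSF6 from 0.0221 to 0.181 and HNRNPH2 from 0.00729 to 0.0781. SNRPD2 ranged from 9.82e-05 to 0.107, SNRPE from 0.000666 to 0.0988, SNRPA from 0.000145 to 0.155, SF3A2 from 0.000889 to 0.0696 and SF3B5 from 3.05e-05 to 0.121, in each case lowest without TAZ-siRNA replicate 3. All 10 kept their sign in each fit. The family medians kept theirs too, at 0.08 to 0.15 for SR genes and -0.20 to -0.11 for Sm and snRNP genes. Exons of 7 of the 10 called genes overlap another protein-coding gene, 5 of them one on the opposite strand (SRSF2 with MFSD11, HNRNPH3 with RUFY2, SF3A2 with PLEKHJ1, SNRPA with ACTMAP and SNRPD2 with QPCTL) and 2 one on the same strand (HNRNPH2 with RPL36A-HNRNPH2, and SRSF6 with a gene that has no symbol), and whether the counting used the strand is not given in the sources used here.

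**Figure D4:**
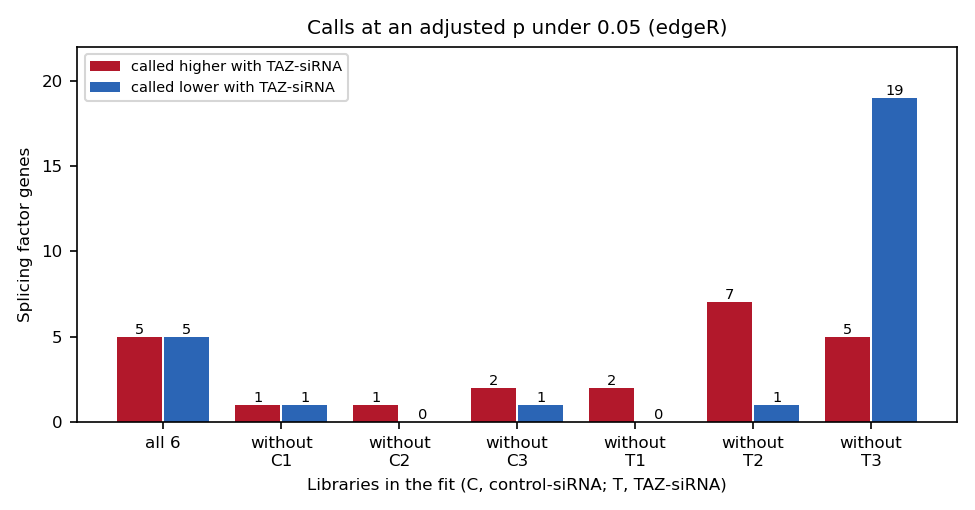
Number of members called at an adjusted p under 0.05 (vertical axis) with all 6 libraries and with each library left out in turn, as red bars for higher and blue bars for lower with TAZ-siRNA. The fit without TAZ-siRNA replicate 3 gives 19 lower calls, against 5 with all libraries and 0 or 1 in the other fits.

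Reads of U2AF1, HNRNPA1 and HNRNPA1L2 could be divided among near-identical copies. U2AF1, the small subunit that reads the AG at the 3′ splice site, shared its reads with U2AF1L5, a copy that took 50.5% of their summed counts. U2AF1 was at 49.0, 46.6 and 53.3 CPM with control-siRNA and at 41.0, 39.6 and 48.8 CPM with TAZ-siRNA (-0.20 ± 0.08, adjusted p = 0.104), and the sum of both rows gave the same log2 fold change (-0.20 ± 0.08, adjusted p = 0.0955). HNRNPA1 held 90.7% of the counts of its family, its copy HNRNPA1L2 1.75% and 71 pseudogenes 7.60%. Their summed counts gave -0.10 ± 0.07 on the log2 scale (adjusted p = 0.350). HNRNPA1L2 alone was at 25.4 ± 1.01 CPM against 25.9 ± 2.84 CPM (SD, n = 3), and its sign turned without TAZ-siRNA replicate 3 (from 0.02 to -0.07). How such reads were assigned is not given in the sources used here.

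Noncoding transcripts were compared as the share of a gene's summed TPM held by its noncoding RefSeq models, in the 19 members with both kinds of transcript, 9 of them SR genes. The mean share was lower with TAZ-siRNA in 13 members and higher in 6. The groups did not overlap in 2 of 19 members, SRSF2 and SRSF7, beside 10.8% of 4021 genes, so members separated about as often as other genes. The count was 5 without control-siRNA replicate 2 and 4 without control-siRNA replicate 3, TAZ-siRNA replicate 1 or TAZ-siRNA replicate 2, where 19.2% to 20.8% of genes separated. The noncoding share of SRSF2 was 18.9%, 19.3% and 17.6% with control-siRNA and 10.8%, 11.97% and 10.5% with TAZ-siRNA, a difference of -7.55 percentage points (exact permutation p = 0.1, 2-sided, the smallest that 3 against 3 allows). Counting curated models alone, the share was 12.3% ± 1.18 against 6.91% ± 0.36 (SD, n = 3). The leading noncoding transcript of SRSF2, of 1992 bases, was at 24.1, 28.5 and 23.9 TPM against 17.7, 17.4 and 15.7 TPM. Its leading coding transcript, of 1888 bases, was at 163, 158 and 159 TPM against 210, 204 and 205 TPM. For this SR gene the coding transcript was thus higher and the noncoding one lower in each TAZ-siRNA library than in each control-siRNA library. The share of SRSF7 was 35.6%, 38.6% and 40.0% against 35.4%, 33.4% and 34.1% (-3.77 points, exact permutation p = 0.1), and its summed noncoding level was 75.9 ± 4.57 TPM against 75.3 ± 6.05 TPM (SD, n = 3), whereas its coding transcripts did not overlap between the groups, at 124 ± 4.31 TPM against 144 ± 8.38 TPM. Counting curated models alone, the share of SRSF7 was 0 in every library, as it would also be if no curated noncoding model of it were listed.

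The 5 members with the highest mean noncoding shares varied widely among libraries of a group. HNRNPA2B1 had 73.6% to 95.4% over the 6 libraries, SRSF6 59.8% to 85.4%, HNRNPDL 32.3% to 43.2% and SF3B1 32.4% to 49.0%. In HNRNPA2B1, SRSF6 and SF3B1 the leading noncoding model was a predicted one, not a curated one. That of SRSF6, of 4336 bases, was near in length to its coding transcript of 4353 bases. Whether such models carry poison exons, or were told apart from coding transcripts, was not tested. HNRNPA3 had the largest difference upwards (22.3 points), with 68.8%, 74.7% and 9.40% with control-siRNA and 75.8%, 71.6% and 72.2% with TAZ-siRNA. That difference rested on control-siRNA replicate 3, in which 1 coding transcript of 5810 bases stood at 103 TPM, beside 4.14 to 14.5 TPM in the other libraries, and the gene as a whole was at 463 ± 8.20 CPM against 479 ± 17.2 CPM. The transcript with the largest TPM was the same in all 6 libraries for 32 of 43 members with several transcripts, and in the other 11 the groups still shared a leading transcript.

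**Figure D5:**
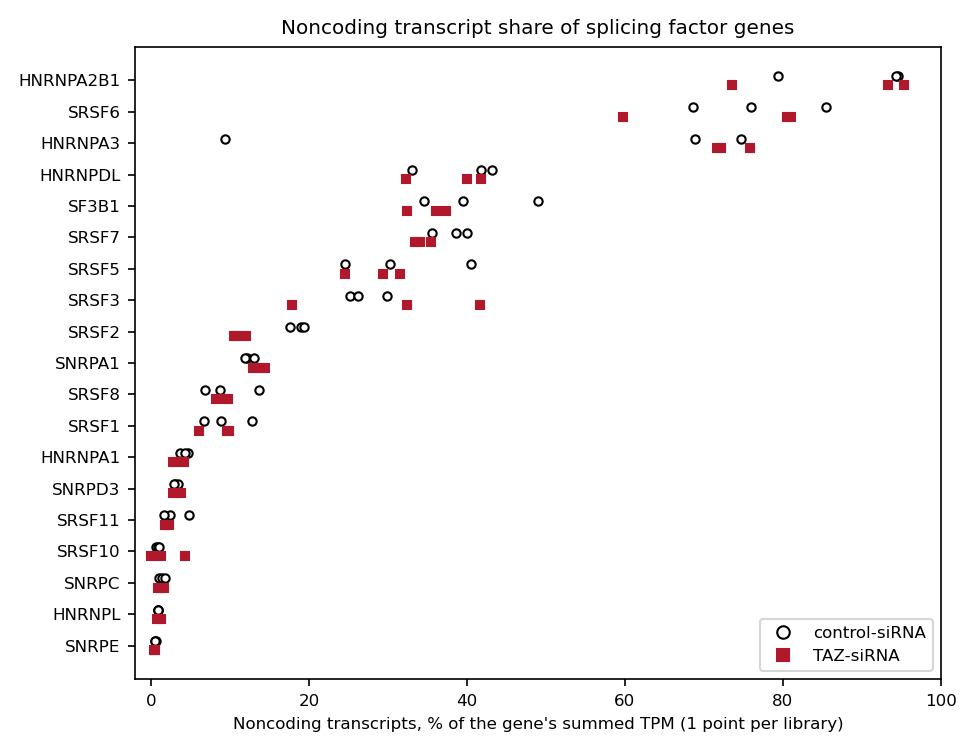
Share of each gene's summed TPM held by noncoding transcripts (horizontal axis, percent) in the 19 members with both kinds of transcript, with open circles for the 3 control-siRNA libraries and red squares for the 3 TAZ-siRNA libraries. The groups are separate in SRSF2 (17.6% to 19.3% against 10.5% to 11.97%) and, by a small margin, in SRSF7, and HNRNPA3 has 1 control-siRNA library at 9.40%.

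Other genes of the splicing pathway were read in the same fit, as 5 lists of 137 genes, of which 135 were tested and 26 changed (19.3%, 9 higher and 17 lower). Over all genes tested the share was 22.1% (11.9% higher and 10.2% lower), so these lists too were called about as often as genes in general. Over protein-coding genes tested it was 25.7%. In the SMN complex and its partners, which load Sm rings onto snRNAs, 5 of 15 genes fell and 14 of 15 were below 0 (median log2 fold change -0.16). These included GEMIN5, the snRNA-binding subunit (-0.36 ± 0.05, adjusted p = 0.00075), CLNS1A, the chaperone that holds Sm proteins before assembly (-0.29 ± 0.07, adjusted p = 0.0112), and GEMIN6 (-0.31 ± 0.08, adjusted p = 0.0236). No gene of this list rose with edgeR, with 0 at an unadjusted p under 0.05 and 0 with DESeq2, and the median lay on the same side of 0 as that of the Sm and snRNP genes. The 5 falls became 9 without TAZ-siRNA replicate 3 and 1 to 3 without any one of the other libraries. Over the 5 lists, the 26 calls became 57 without TAZ-siRNA replicate 3, 9 without TAZ-siRNA replicate 1, and 11, 10 and 9 without control-siRNA replicates 1, 2 and 3. Over all genes, 33.7% were called without TAZ-siRNA replicate 3, 11.9% without TAZ-siRNA replicate 1, and 13.1%, 11.2% and 12.1% in the 3 control-siRNA fits.

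In the rest of the spliceosome core, 3 of 53 genes rose and 9 fell (median -0.06). U2SURP, a U2 snRNP-associated protein, stood at -0.31 ± 0.06 on the log2 scale (adjusted p = 0.00357), LSM5 of the Lsm ring -0.35 ± 0.06 (adjusted p = 0.00382) and SART1 of the tri-snRNP -0.23 ± 0.05 (adjusted p = 0.00585). Among kinases and partners of SR proteins, 3 of 17 rose and 1 fell (median 0.06). TRA2A, an SR-related splicing activator (0.22 ± 0.06, adjusted p = 0.0303), and RBM39 (0.18 ± 0.05, adjusted p = 0.0314) were higher, and CLK3, a kinase of SR proteins, was lower (-0.17 ± 0.05, adjusted p = 0.0451).

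Among 34 other splicing regulators, 3 rose and 1 fell (median -0.04). CELF2 fell from 57.0 ± 2.57 to 36.4 ± 3.92 CPM (SD, n = 3; -0.65 ± 0.08, adjusted p = 0.000416), a larger change than any of the 54 members showed. TIA1, which binds U-rich sequence next to 5′ splice sites, rose by 0.32 ± 0.06 (adjusted p = 0.00612), and CELF1 rose by 0.18 ± 0.06 (adjusted p = 0.0469). Of 16 nonsense-mediated decay genes, the pathway that degrades transcripts with poison exons, 1 fell, SMG5 (-0.24 ± 0.05, adjusted p = 0.00531).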

How the data were processed

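Libraries of mRNA (stranded TruSeq kit, 100-base paired reads) from 6 MDA-MB-231 preparations were used, 3 with control-siRNA and 3 with TAZ-siRNA, grouped by the labels. Per the study's methods, the authors used FastQC, trimmed, aligned to GRCh38 (HISAT2) and estimated genes and transcripts of a RefSeq model (StringTie), without stated versions. The submitters' processing notes also name Bowtie 0.12.2, with no role given. The deposited tables hold estimated counts per gene and transcript, given as whole numbers, and the authors' FPKM and TPM values.

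Estimated counts were tested over the whole gene table with edgeR 4.0.16 in R 4.3.3 (TMM, filterByExpr with a minimum count of 10, robust quasi-likelihood fit, adjusted p under 0.05). On simulated counts the scheme called 76 of 100 genes changed by 0.5 on the log2 scale and 96 of 100 changed by 1. Of its 179 calls, 7 were false. Changes as small as those of the members were not simulated. DESeq2 1.42.0, limma 3.58.1 on log2(FPKM + 1), other scalings and filters, a stricter threshold of 0.01, a correction for GC content and transcript length, and the loss of each library were alternatives. Noncoding shares used deposited TPM of transcripts with a mean gene TPM of at least 1. Positions of genes are those of the deposited transcripts. Nothing states how far the 3 preparations of a group were independent, so p-values measure only the spread between them. Depth of 48307548 to 71749634 counts per library sets the counting error.

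The members, the lists of other splicing genes and the motifs were chosen with earlier results of these data known. Genes named with values were every member called, the highest member of each family, members with near-identical copies, the 3 called genes of smallest adjusted p in each other list, the members with the highest or most different noncoding shares, and WWTR1. Members set beside these within a family and the HNRNPH group were chosen after their values were seen. The sum of near-identical rows, the family medians in each alternative and the share from curated noncoding models alone were added after the data were seen. The sums of TPM by family and their ratio were not among the planned results.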

Additional observations from a re-analysis of the deposited data

How the results depend on the processing

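Of 559 alternative values for 35 named genes, 452 kept their direction and their side of the threshold, 86 lost and 11 gained a call, and 10 reversed, none of them in the 24 called genes. WWTR1 and the median over members were kept in each alternative run. Members higher numbered 5 with all libraries, 1 at an adjusted p under 0.01 and 1 to 7 with a library left out. Members lower numbered 5, and then 11 after the GC and length correction, 0 at an adjusted p under 0.01 and 0 to 19 with a library left out. Over all genes, 10.2% were lower, and then 16.1%, 4.38% and 4.84% to 16.1%, and 11.9% were higher, and then 5.76% at an adjusted p under 0.01 and 6.39% to 17.6% with a library left out. Other splicing genes called numbered 26, and then 44, 8 and 9 to 57, beside 22.1% of all genes called, and then 29.8%, 10.1% and 11.2% to 33.7%. Members with separate noncoding shares numbered 2, and then 2 to 5 with a library left out, beside 19.2% to 20.8% of genes in the fits that gave 4 or 5. Beyond fewer samples in those fits, the cause was not tested. After the GC and length correction the log2 fold change turned in 10 of the 54 members tested, of which 0 were called; among the genes named by the rule these were SRSF9 (0.079), SNRPB (0.00044) and HNRNPA3 (-0.0023). With a library left out it ranged from -0.062 to 0.016 in SRSF9, -0.065 to 0.088 in HNRNPA1L2 and -0.016 to 0.022 in SF3B1, which was at 0.00011 with DESeq2.

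The replicate numbers shared by the groups mark no stated pairing. Deviations of same-numbered libraries from their group means correlated at -0.02, 0.01 and 0.07, and not every library correlated best with its own number. With a replicate block, 15 members were lower, 6 were higher and 53 other splicing genes were called, beside 14.9% of all genes lower, 15.3% higher and 30.2% called. The 6 untested members had at most 2 counts in a library, and 3 libraries against 3 allow no exact p below 0.1.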
